A study of Homo sapiens with 8 samples.

Results

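Lovastatin did not change the same genes to the same extent in 2 ovarian cancer cell lines, and the difference between the lines is described here gene by gene. For each gene the quantity is the SKOV3 change (lovastatin minus DMSO) minus the OVCAR5 change, on the log2 scale, where 1 unit is a 2-fold difference. It is above 0 where lovastatin raised a gene more, or lowered it less, in SKOV3, and below 0 where the reverse held. Where a gene was undetected in 1 line, that line's change was not measured and the difference rests on the other line. Probes were taken if they carried 1 gene symbol and had a detection p under 0.01 on at least 2 of the 8 arrays, which kept 14851 of 47323 probes and 11218 of the 20046 genes with a probe. A gene was read from its brightest kept probe, and a difference counted as called where limma's p, adjusted by Benjamini-Hochberg, lay under 0.05.

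The study treated SKOV3 and OVCAR5, both established human lines, with 10 µM lovastatin or with DMSO, the solvent control, for 48 h, and hybridised total RNA to Illumina beadchips. There were 4 groups of 2 arrays: SKOV3 with lovastatin, SKOV3 with DMSO, OVCAR5 with lovastatin and OVCAR5 with DMSO. All 4 groups grew in the same serum-containing medium, and it is not stated if both arrays of each group represent independent cultures. Each line is a single cell population, so the comparison is between these lines and not between classes of tumour. From 15370 to 17231 probes were detected per array, arrays of a group correlated at 0.988 to 0.994, and the standard deviation of the difference between the 2 arrays of a group was 0.34 log2 in SKOV3 with lovastatin, against 0.24 to 0.26 in the other groups. With 2 arrays per group, the number of arrays limits the precision, and the median standard error of a difference was 0.21. A bulk array cannot tell fewer cells of a kind from less RNA per cell.

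Lovastatin inhibits HMG-CoA reductase, the enzyme that makes mevalonate. Mevalonate feeds cholesterol synthesis, and it also feeds the isoprenoid chains that anchor small GTPases such as the Rab proteins to membranes. Cells low in sterol normally switch on the genes of cholesterol synthesis through SREBP transcription factors. SKOV3 carries an ERBB2 amplification and lacks p53.

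The line labels were set against defining genes. ERBB2, the amplified receptor of SKOV3, read 13.27 and 13.11 in SKOV3 with lovastatin, against 12.40 and 12.31 in SKOV3 with DMSO, and 8.45 and 8.32 in OVCAR5 with lovastatin, against 7.75 and 7.73 in OVCAR5 with DMSO. Every SKOV3 value lay above every OVCAR5 value. The epithelial genes KRT8, KRT18 and EPCAM were detected on all arrays of both lines, while the keratins KRT19 and KRT7 were detected on all SKOV3 arrays and on no OVCAR5 array. PAX8, a Müllerian lineage factor, was detected in both, and the Müllerian and ovarian carcinoma genes MSLN, FOLR1 and SOX17 were detected in SKOV3 and on no OVCAR5 array. Of 8 such markers looked up, these 4 were among the tested genes, as were 5 of 6 epithelial markers. Of 4 mesenchymal markers 2 were tested. VIM was detected on all arrays, and CDH2 on all SKOV3 arrays and no OVCAR5 array. None of 18 gut epithelial markers passed the detection filter in either line. Of the 4 leukocyte, 6 fibroblast and 3 endothelial markers that passed it, CSF1R and MFAP5 were called for the difference. MFAP5, a microfibril protein, fell by 2.60 log2 in SKOV3 and was undetected in OVCAR5. CSF1R was detected in OVCAR5 under lovastatin alone, at least 2.53-fold above its DMSO level there (adjusted p = 0.000239).

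The difference was called for 3062 of 11218 genes (27.3%), 1439 above 0 (12.8%) and 1623 below 0 (14.5%), and 4465 genes had an unadjusted p under 0.05. It reached 2-fold for 1622 genes (14.5%), 734 above 0 and 888 below. Within SKOV3, lovastatin changed 5665 genes (50.5%), with 26.6% rising and 23.9% falling. Within OVCAR5 it changed 2558 (22.8%), with 13.5% rising and 9.29% falling. Of the 3062 called genes, 2476 (80.9%) had the larger change in SKOV3 and 586 in OVCAR5, and the median size of their changes was 1.0 log2 in SKOV3 against 0.31 in OVCAR5. The split between above and below 0 depends on the scaling. Scaling each array to its median in place of quantile normalization gave 758 genes above 0 and 1596 below, and moved the median difference of all genes to -0.16, against -0.02 in the values reported here.

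Most called genes changed in SKOV3 without a called change in OVCAR5: 1968 of 3062, of which 970 rose and 998 fell in SKOV3. Another 418 changed the same way in both lines by more in SKOV3, and 61 changed the same way by more in OVCAR5. A further 383 were called in OVCAR5 alone, 158 in both lines in opposite directions, and 74 in neither. Across all 11218 genes the SKOV3 and OVCAR5 changes correlated at Pearson 0.48 and Spearman 0.49, given as a description across genes, which are not independent replicates. The smaller of these classes are sensitive to single arrays. Leaving out any array other than the lovastatin-treated SKOV3 ones left 164 to 266 genes with the larger same-way change in SKOV3 and 74 to 103 with opposite changes. The class called in OVCAR5 alone fell to 221 to 253 without any 1 OVCAR5 array or without SKOV3 DMSO replicate 1, and the class larger in OVCAR5 to 31 to 39 without either SKOV3 DMSO array, either OVCAR5 lovastatin array or OVCAR5 DMSO replicate 1. The count above 0 was 956 without SKOV3 DMSO replicate 1 and likewise without OVCAR5 lovastatin replicate 1.

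**Figure D1:**
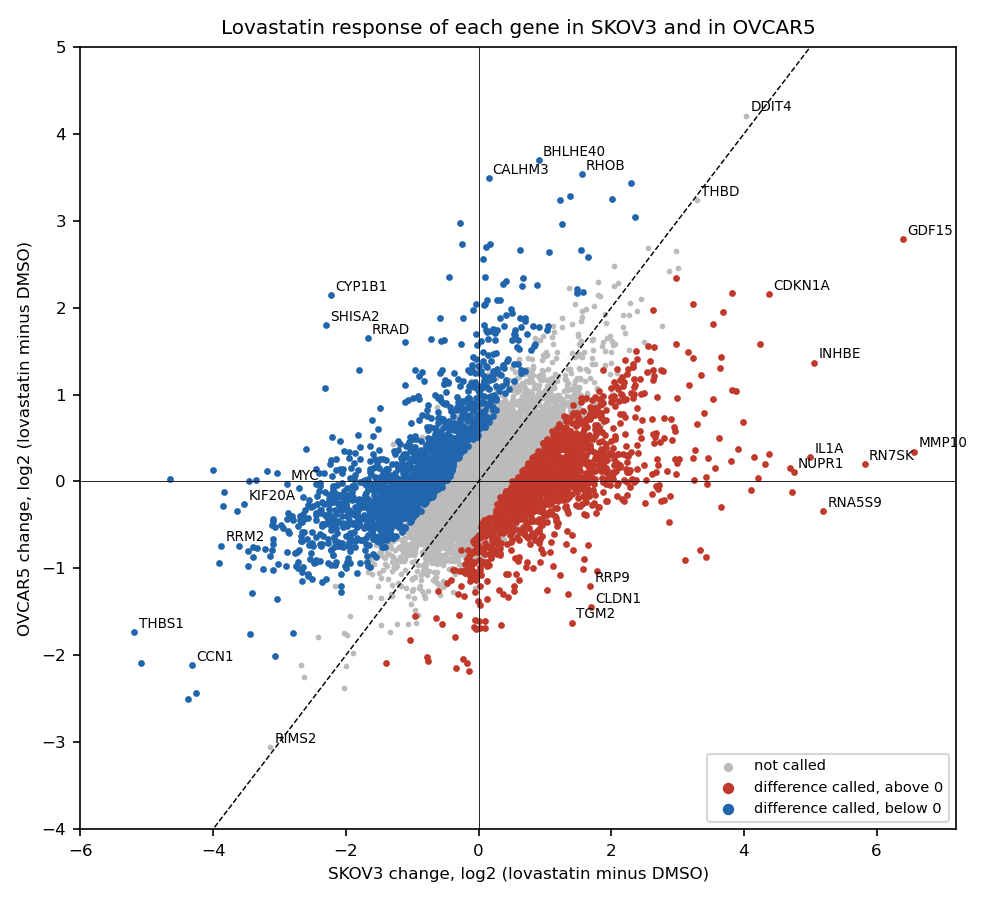
SKOV3 change (horizontal axis, log2, lovastatin minus DMSO) against OVCAR5 change (vertical axis, same unit) for each of the 11218 genes, means of 2 arrays per group. Points off the dashed line of equal change are coloured where the difference was called, 1439 in red above 0 and 1623 in blue below 0, and the cloud is wider along the SKOV3 axis.

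Genes of cell division had the highest share called among the gene lists examined, at 96.2%. Of 52 measured genes of G2 and mitosis, the difference was called below 0 for 50 and above 0 for none, with a median of -1.87 against -0.02 for all genes. In SKOV3, 51 of the 52 fell and none rose. In OVCAR5, 16 fell and CDC25B, a phosphatase that activates CDK1, rose by 0.75 log2. The call for CDC25B (-0.53) was lost, at -0.48 to -0.58, without either SKOV3 DMSO array or any 1 OVCAR5 array. The median change was -2.31 in SKOV3 and -0.37 in OVCAR5.

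KIF20A, a kinesin of cytokinesis, read 7.07 and 7.12 in lovastatin-treated SKOV3 and 10.63 and 10.62 in its DMSO control, and 10.63 and 10.63 in lovastatin-treated OVCAR5 and 10.92 and 10.87 in its DMSO control. Lovastatin-treated SKOV3 stood alone below the 3 other groups, which lay close together. Its difference was -3.27 ± 0.15 (SE, adjusted p = 2.83e-05), made of a SKOV3 change of -3.54 and an OVCAR5 change of -0.26. SPC25, a subunit of the NDC80 kinetochore complex, differed by -2.64 ± 0.17 (SE, adjusted p = 6.74e-05), although a second kept probe of the gene gave -0.04. CENPF and ASPM, a kinetochore and a spindle-pole protein, differed by -2.62 and -2.58. ASPM illustrates the pattern on single arrays, at 7.98 and 7.52 in SKOV3 under lovastatin against 10.44 and 9.94 in DMSO, with 11.15 and 11.11 in OVCAR5 under lovastatin against 11.04 and 10.93 in DMSO. The lovastatin arrays of SKOV3 lay below their DMSO arrays with no overlap, and both OVCAR5 groups were high, with the lovastatin arrays slightly above. MKI67 and BUB3 were the 2 genes not called. MKI67, the proliferation antigen, was undetected in SKOV3 under lovastatin, at least 2.03-fold below its DMSO level (adjusted p = 9.1e-05), and it fell by 1.33 log2 in OVCAR5.

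S phase genes fell in both lines, by more in SKOV3. Of 44 measured, 40 fell in SKOV3 and 33 in OVCAR5, none rose in either, and the median change was -2.05 in SKOV3 and -0.65 in OVCAR5. The difference was called for 35 (79.5%, against 27.3% of all genes), with a list median of -1.45. It lay below 0 for 34 of them and above 0 for CCNE1 alone. CCNE1 (cyclin E1) had a difference of 0.81, and its call was lost without SKOV3 DMSO replicate 1 (0.73), OVCAR5 lovastatin replicate 2 (0.74) or OVCAR5 DMSO replicate 1 (0.79). RRM2, the small subunit of ribonucleotide reductase, read 5.67 and 5.50 in SKOV3 with lovastatin, against 9.47 and 9.45 in SKOV3 with DMSO, and 8.85 and 8.73 in OVCAR5 with lovastatin, against 9.45 and 9.60 in OVCAR5 with DMSO. SKOV3 with lovastatin lay far below the 3 other groups, and 1 of its 2 arrays was above detection. The RRM2 difference was -3.14 ± 0.18 (SE, adjusted p = 5.04e-05). TYMS, thymidylate synthase, differed by -2.67 and E2F2, an activating E2F factor, by -2.97. E2F2 was undetected in SKOV3 under lovastatin, at least 12.3-fold below its DMSO level (adjusted p = 1.99e-06), and it fell by 0.94 log2 in OVCAR5. UHRF1, which carries DNA methylation through replication, differed by -2.64, while another of its probes gave -0.03.

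The promoters of these genes carry the elements known for cell cycle control. The cell cycle homology region TTTGAA, which recruits the DREAM and B-MYB complexes, was in 30 of 44 mitosis genes with a promoter sequence (68.2%), against 13.9% of 9055 tested genes with one. The windows ran from 250 bases before to 50 after a start in RefSeq on GRCh38.p14, both strands were searched, and a gene counted if any of its windows held the letters. With a CCAAT box, spelled CCAAT, as well, the shares were 54.5% and 7.66%, and the 2 motifs do not overlap in their letters. Mitosis genes with the region had a median difference of -2.04 (n = 30) and those without it -1.80 (n = 14). Among all tested genes, TTTGAA was in 25.8% of those lower by at least 2-fold and in 12.8% of those higher by at least 2-fold. These are matches of letters, not measured binding sites. Stretches of SPC25 (chr2:168890403-168890680, minus strand), ASPM (chr1:197146665-197146828, minus strand) and NCAPG (chr4:17810919-17810974, plus strand), 3 mitosis genes whose difference was below -2, are shown with TTTGAA and CCAAT, on either strand, in capitals.
SPC25: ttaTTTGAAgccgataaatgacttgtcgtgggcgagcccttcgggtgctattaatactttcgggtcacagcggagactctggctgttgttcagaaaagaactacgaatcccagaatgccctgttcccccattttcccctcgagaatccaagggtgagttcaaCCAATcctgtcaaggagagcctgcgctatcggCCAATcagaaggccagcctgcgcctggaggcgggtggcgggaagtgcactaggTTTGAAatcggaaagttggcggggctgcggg
ASPM: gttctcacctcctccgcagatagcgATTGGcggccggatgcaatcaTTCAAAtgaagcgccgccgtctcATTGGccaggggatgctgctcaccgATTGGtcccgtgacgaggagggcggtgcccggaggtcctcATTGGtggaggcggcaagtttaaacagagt
NCAPG: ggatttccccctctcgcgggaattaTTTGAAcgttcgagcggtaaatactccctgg
NCAPG, a condensin subunit, changed by -2.65 in SKOV3 and by -0.18 in OVCAR5, and its difference was -2.47 ± 0.16 (SE, adjusted p = 6.75e-05).

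S phase promoters more often held an E2F site. The letters TTCGCGC or TTGGCGC were in 19 of 39 S phase genes with a window (48.7%), 15.9% of mitosis genes and 10.5% of tested genes. TTTGAA was in 1 of the 39. RRM2 (chr2:10122351-10122407, plus strand) and E2F2 (chr1:23531243-23531299, minus strand) are shown as the S phase genes with the lowest differences, with the E2F letters in capitals.
RRM2: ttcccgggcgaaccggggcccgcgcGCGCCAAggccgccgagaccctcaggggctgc
E2F2: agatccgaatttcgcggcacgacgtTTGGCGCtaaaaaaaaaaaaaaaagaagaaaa
In both, all SKOV3 lovastatin arrays lay below all other arrays.

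Regulators of the G1 phase moved in both directions. CDKN1A, the CDK inhibitor p21, read 12.01 and 12.30 in lovastatin-treated SKOV3 and 7.78 and 7.78 in its DMSO control, and 9.64 and 9.60 in lovastatin-treated OVCAR5 and 7.58 and 7.36 in its DMSO control. It was higher with lovastatin in both lines without overlap, by 4.38 log2 in SKOV3 and 2.15 in OVCAR5, a difference of 2.23 ± 0.20 (SE, adjusted p = 0.000222). Of 12 CDK inhibitors, D cyclins, their kinases and pocket proteins, 7 were called (58.3%, against 27.3% of all genes), with a median of -0.37. CDKN3, a phosphatase of CDKs, differed by -1.88, and CCND3, cyclin D3, by -1.26.

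MYC, a transcription factor that drives growth, fell in SKOV3 and not detectably in OVCAR5. It read 8.28 and 8.53 in SKOV3 under lovastatin against 11.20 and 11.39 in DMSO, with 11.91 and 11.80 in OVCAR5 under lovastatin against 11.92 and 11.85 in DMSO. Only SKOV3 with lovastatin was low, and the OVCAR5 groups overlapped. Its difference was -2.86 ± 0.19 (SE, adjusted p = 7.94e-05), and a second probe gave -3.02. Of 36 genes of ribosome biogenesis and the MYC network, 26 fell in SKOV3 and 20 in OVCAR5. The difference was called for 13 (36.1%, against 27.3% of all genes), 9 of them below 0. The list median was -0.32, which became -0.21 without SKOV3 lovastatin replicate 2 and -0.07 without background correction. MXD1, a partner of MAX that opposes MYC, rose by 3.53 log2 in SKOV3 and 1.82 in OVCAR5. MXD3, a relative active in dividing cells, changed by -1.52 and 0.60, with called changes in both lines. RRP9, a protein of the U3 snoRNP, rose in SKOV3 and fell in OVCAR5, with changes of 1.68 and -1.21. Cytosolic ribosomal proteins were called for 15.2% of 33, respiratory chain subunits for 13.8% of 29, vesicle coat subunits for 3.57% of 28 and Ras and Rab GTPases for 14.8% of 27, all under the 27.3% of all genes.

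**Figure D2:**
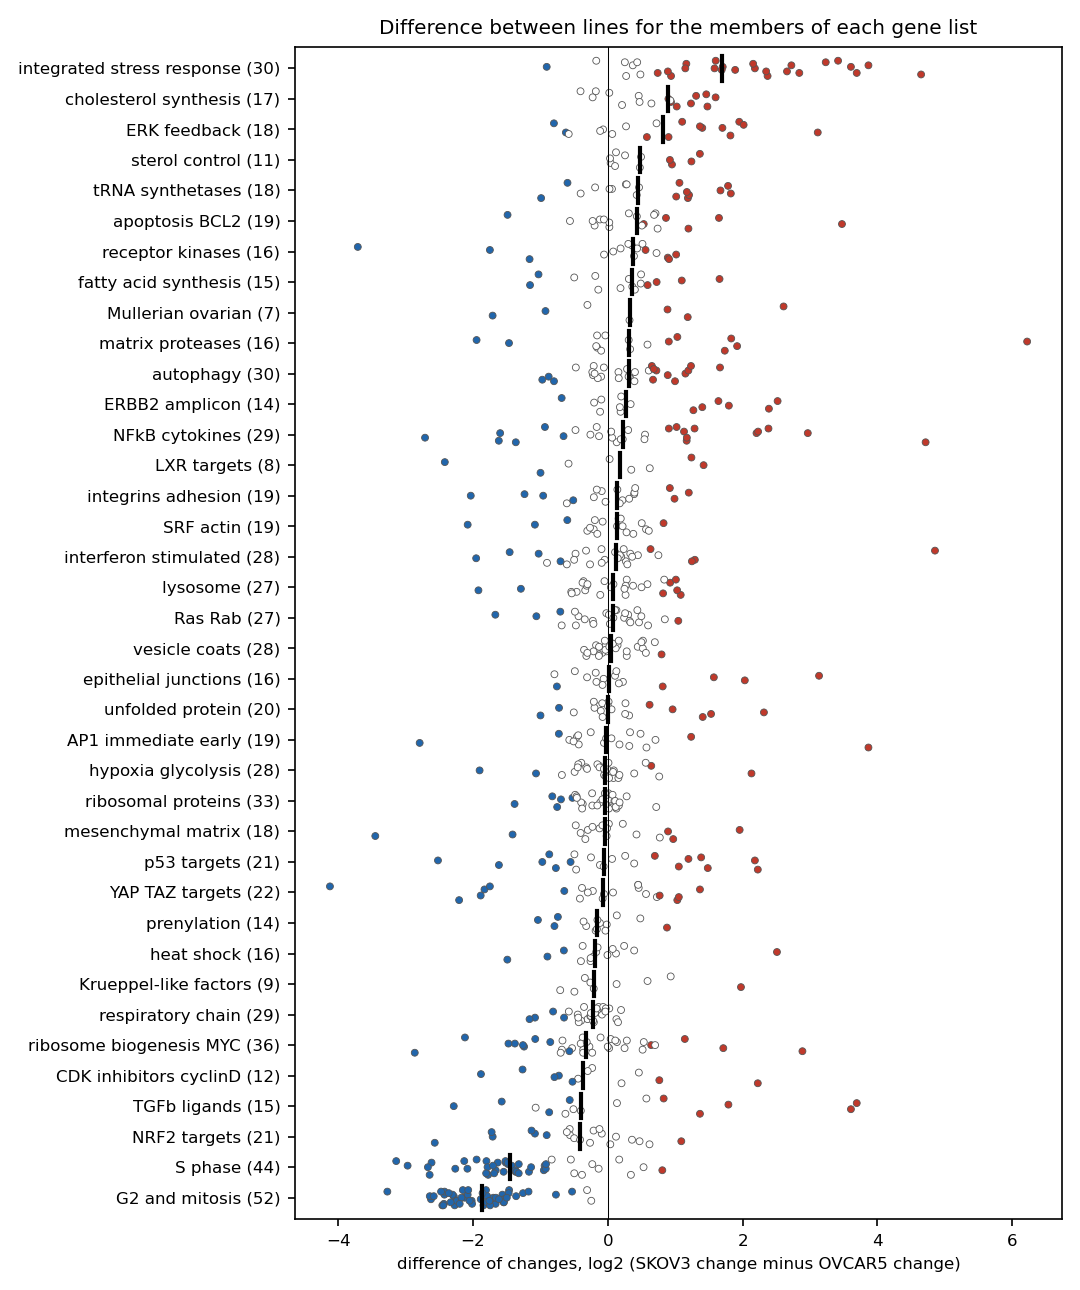
Difference between the lines (horizontal axis, log2, SKOV3 change minus OVCAR5 change) for each measured member of the gene lists shown, each with at least 7 measured genes, whose number stands in brackets. Filled points were called (red above 0, blue below 0), open points were not, and bars mark list medians, which reach from -1.87 for G2 and mitosis to 1.70 for the integrated stress response.

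The integrated stress response was raised in SKOV3 far more than in OVCAR5. Kinases that sense amino acid lack or endoplasmic reticulum stress phosphorylate eIF2α in this pathway, and the factors ATF4 and CHOP then induce amino acid transport and synthesis genes. Of 30 measured members, 26 rose and none fell in SKOV3, while 9 rose and 2, PSAT1 and SLC7A5, fell in OVCAR5. The difference was called for 24 (80%, against 27.3% of all genes), above 0 for 23 and below 0 for SLC7A11, with a median of 1.70. SLC7A11, the cystine carrier, did not pass the test in SKOV3 (-0.15 log2) and rose by 0.75 in OVCAR5.

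ATF3, a stress-induced factor downstream of ATF4, read 11.01 and 11.02 in SKOV3 with lovastatin, against 6.70 and 7.03 in SKOV3 with DMSO, and 6.44 and 6.62 in OVCAR5 with lovastatin, against 5.72 and 6.78 in OVCAR5 with DMSO. SKOV3 with lovastatin was far above every other array, and the OVCAR5 groups overlapped. The difference was 3.87 ± 0.42 (SE, adjusted p = 0.000468). NUPR1, a chromatin protein of the stress response, read 10.12 and 10.66 in lovastatin-treated SKOV3 and 5.61 and 5.66 in its DMSO control, and 5.45 and 4.68 in lovastatin-treated OVCAR5 and 5.03 and 4.89 in its DMSO control. It was detected in all SKOV3 arrays and on 1 of 4 OVCAR5 arrays, and its difference was 4.65 ± 0.37 (SE, adjusted p = 0.000137). CHAC1, which degrades glutathione, was detected only on the lovastatin arrays of SKOV3, at least 5.42-fold above their DMSO level (adjusted p = 1.79e-06). ASNS, asparagine synthetase, rose by 2.27 log2 in SKOV3 against 0.11 in OVCAR5. PSAT1, an enzyme of serine synthesis, changed by 1.08 in SKOV3 and -0.81 in OVCAR5, called in both.

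The secreted stress factors GDF15 and INHBE rose in both lines from below detection. GDF15 read 11.12 and 11.03 in SKOV3 under lovastatin against 4.59 and 4.76 in DMSO, with 7.67 and 7.64 in OVCAR5 under lovastatin against 4.89 and 4.85 in DMSO. Both lovastatin groups lay above all DMSO arrays, by at least 49.8-fold in SKOV3 (adjusted p = 9.15e-08) and at least 4.33-fold in OVCAR5 (adjusted p = 1.06e-05). The fitted difference was 3.61 ± 0.17 (SE, adjusted p = 2.83e-05), which is no bound, since the gene was not above background on the DMSO arrays. The same holds for the fitted difference of each gene given here with a bound. INHBE, an inhibin subunit, was at least 25.1-fold higher in SKOV3 (adjusted p = 4.14e-07) and at least 1.43-fold higher in OVCAR5 (adjusted p = 0.000396). DDIT4, an inhibitor of mTORC1 that ATF4 also induces, was not called for the difference and is described with the like responses.

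Aminoacyl-tRNA synthetases, which charge tRNAs and include several ATF4 targets, were also raised more in SKOV3 in part. Of 18 cytosolic synthetases, 9 rose and 5 fell in SKOV3, and none rose and 2 fell in OVCAR5. The difference was called for 10 (55.6%, against 27.3% of all genes), with a list median of 0.45. It lay above 0 for 8 of them, and below 0 for VARS1 (-0.99) and QARS1 (-0.60). The QARS1 call was lost, at -0.55 to -0.64, without either SKOV3 DMSO array or any 1 OVCAR5 array. GARS1, for glycine, read 12.94 and 12.53 in SKOV3 with lovastatin, against 10.85 and 10.89 in SKOV3 with DMSO, and 12.33 and 12.64 in OVCAR5 with lovastatin, against 12.42 and 12.47 in OVCAR5 with DMSO. The SKOV3 groups did not overlap, the OVCAR5 groups did, and the difference was 1.83 ± 0.23 (SE, adjusted p = 0.000994). WARS1, SARS1, MARS1 and AARS1, for tryptophan, serine, methionine and alanine, differed by 1.78, 1.67, 1.21 and 1.19.

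The C/EBP-ATF composite element TGATGNAA, to which ATF4 binds, was in 7 of 25 stress genes with a window (28%) and in 6 of 15 synthetase genes (40%), against 2.65% of tested genes. It was in 5.78% of genes higher by at least 2-fold and in 2.26% of those lower by at least 2-fold. Both strands were searched in the same windows. Stretches of 3 genes of each list are shown for the shared element, which stands in capitals, inverted where it lies on the other strand. They are ATF3 (chr1:212565191-212565248, plus strand), CHAC1 (chr15:40953237-40953294, plus strand), ASNS (chr7:97872444-97872501, minus strand), GARS1 (chr7:30594820-30594877, plus strand), MARS1 (chr12:57488039-57488096, plus strand) and AARS1 (chr16:70289661-70289718, minus strand).
ATF3: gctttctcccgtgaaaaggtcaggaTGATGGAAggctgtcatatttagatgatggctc
CHAC1: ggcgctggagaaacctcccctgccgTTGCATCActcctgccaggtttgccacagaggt
ASNS: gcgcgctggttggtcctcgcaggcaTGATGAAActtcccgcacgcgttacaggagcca
GARS1: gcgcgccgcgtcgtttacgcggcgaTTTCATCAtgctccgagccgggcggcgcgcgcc
MARS1: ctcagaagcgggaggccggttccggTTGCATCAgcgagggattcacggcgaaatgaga
AARS1: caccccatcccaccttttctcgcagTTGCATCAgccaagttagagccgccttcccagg
All 6 genes rose in SKOV3. CHAC1 was undetected in OVCAR5, and the other 5 did not pass the test there, with changes of 0.28, 0.11, 0.04, -0.11 and 0.27 log2 in the order of the stretches.

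Chaperones of the endoplasmic reticulum rose in part. Of 20 genes of the unfolded protein response, 7 were called (35%, against 27.3% of all genes), 5 above 0 and 2 below. The list median was 0.01 and lay between -0.04 and 0.09 when any 1 array was left out. HSPA5, the main chaperone BiP, rose by 2.03 log2 in SKOV3 and 0.62 in OVCAR5, a difference of 1.41 ± 0.17 (SE, adjusted p = 0.000842). DNAJB9, a BiP cofactor, rose by 2.94 and 0.62. XBP1, a transcription factor of the response, rose by 1.84 in SKOV3 and had a change of 0.31 that was not called in OVCAR5. Among 30 autophagy genes, 13 were called (43.3%, against 27.3% of all genes), with a median of 0.32. Of these, 10 lay above 0 and 3 below, ATG2A (-0.97), ATG4C (-0.88) and ATG4A (-0.80). WIPI1, which binds forming autophagosomes, read 9.88 and 9.91 in lovastatin-treated SKOV3 and 6.69 and 6.80 in its DMSO control, and 8.52 and 8.47 in lovastatin-treated OVCAR5 and 6.99 and 7.02 in its DMSO control. Lovastatin raised it without overlap in both lines, and the difference was 1.66 ± 0.16 (SE, adjusted p = 0.000274). SQSTM1, an autophagy receptor, differed by 1.23 and ATG12, a conjugation protein, by 1.15. MAP1LC3B, the LC3B protein of autophagosomes, differed by 0.89, a call that median scaling ended (0.53).

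Part of the sterol response was larger in SKOV3. Of 17 enzymes of cholesterol synthesis, 11 rose in SKOV3 and EBP fell, while LSS alone rose in OVCAR5. The difference was called for 8 (47.1% of the list, against 27.3% of all genes), all above 0, and the median was 0.90. HMGCS1, which makes HMG-CoA, read 11.99 and 11.99 in SKOV3 under lovastatin against 10.57 and 10.44 in DMSO, with 9.58 and 9.45 in OVCAR5 under lovastatin against 9.40 and 9.29 in DMSO. Lovastatin raised it without overlap in SKOV3, and the OVCAR5 lovastatin arrays lay just above their DMSO arrays. Its difference was 1.31 ± 0.17 (SE, adjusted p = 0.00103), made of 1.48 in SKOV3 and 0.17 in OVCAR5. MVD, which completes the isoprenoid unit, differed by 1.60, MSMO1, a sterol demethylating oxidase, by 1.48 and DHCR7, the last reductase, by 1.23. LSS, lanosterol synthase, rose by 1.04 in SKOV3 and 0.83 in OVCAR5, and its difference did not pass the test (0.21, adjusted p = 0.464). A second LSS probe changed by 0.21 in SKOV3 and 0.06 in OVCAR5, so the rise of LSS rests on 1 probe. SQLE, squalene epoxidase, had a difference of 0.90 whose call was lost, at 0.84 to 0.96, without any 1 of the SKOV3 DMSO or OVCAR5 arrays. The SQLE difference was 0.60 without SKOV3 lovastatin replicate 1. Median scaling (0.73) or leaving out the detection filter (0.90) also ended the call, and a second SQLE probe gave 0.55, not called.

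Among 11 genes of sterol sensing and transport, the 4 called (36.4%, against 27.3% of all genes) lay above 0. The list median was 0.48, but 0.25 without SKOV3 lovastatin replicate 1 and 0.31 without SKOV3 DMSO replicate 1. INSIG2 and INSIG1, which hold SREBP in the endoplasmic reticulum, differed by 1.37 and 0.95. INSIG1 rose in both lines, by 1.79 and 0.84, and median scaling (0.60) or averaging its probes (0.60) ended the call. NPC1, a lysosomal cholesterol transporter, rose by 2.0 in SKOV3 and 1.07 in OVCAR5. Its difference of 0.92 lost its call, at 0.77 to 0.96, without either SKOV3 DMSO array, either OVCAR5 DMSO array or OVCAR5 lovastatin replicate 1, and under median scaling (0.55). MYLIP, a ligase that degrades the LDL receptor and an LXR target, fell in both lines, by 0.78 in SKOV3 and by 2.02 in OVCAR5. ABCA1, the cholesterol exporter under LXR control, read 5.76 and 5.51 in SKOV3 with lovastatin, against 7.86 and 7.72 in SKOV3 with DMSO, and 8.29 and 8.01 in OVCAR5 with lovastatin, against 7.89 and 7.88 in OVCAR5 with DMSO. SKOV3 with lovastatin lay well below the 3 other groups, and the difference was -2.42 ± 0.21 (SE, adjusted p = 0.000181). In fatty acid synthesis, 6 of 15 genes were called (40%, against 27.3% of all genes), 4 above 0 and 2 below. ACSS2, which makes acetyl-CoA from acetate, differed by 1.66 and SCD, the stearoyl desaturase, by 1.10. The 2 below 0 were GPAM (-1.03) and ACACB. ACACB was undetected in OVCAR5 and at least 1.86-fold lower with lovastatin in SKOV3 (adjusted p = 0.000207). The SRE letters TCACNCCAC were in 0 of 15 cholesterol synthesis promoters and 1.41% of tested genes.

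RHOB showed the reverse order. RHOB, a stress-inducible small GTPase whose transcript rises when prenylation is blocked, read 12.78 and 12.56 in lovastatin-treated SKOV3 and 11.08 and 11.15 in its DMSO control, and 11.54 and 11.53 in lovastatin-treated OVCAR5 and 7.99 and 8.0 in its DMSO control. Lovastatin raised it in both lines without overlap, by 1.56 log2 in SKOV3 and by 3.54 in OVCAR5, so its difference was -1.98 ± 0.17 (SE, adjusted p = 0.00019). The SKOV3 level in DMSO was already 3.12 log2 above that of OVCAR5. Of 14 genes of prenyl chain synthesis and protein prenylation, 4 were called (28.6%, near the 27.3% of all genes), 1 above 0 and 3 below. FNTA, the shared subunit of the farnesyl and geranylgeranyl transferases, differed by 0.88. PDSS1, which builds the ubiquinone side chain, differed by -1.04, ICMT by -0.79 and FNTB by -0.74. RAB27B, a GTPase of vesicle secretion, rose by at least 2.55-fold in OVCAR5 (adjusted p = 3.3e-05), where it was undetected in DMSO, against 0.67 log2 in SKOV3.

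Of 22 measured targets of YAP and TAZ, 11 fell and 3 rose in SKOV3, and 11 fell and none rose in OVCAR5. The difference was called for 10 (45.5%, against 27.3% of all genes), below 0 for 6 and above 0 for ASAP1, NT5E, GADD45A and TGFB2. The list median was -0.07, near that of all genes, and lay between -0.16 and 0.02 when any 1 array was left out, above 0 without SKOV3 lovastatin replicate 2 or OVCAR5 DMSO replicate 1. CCN1, a matricellular protein, read 8.26 and 7.73 in SKOV3 under lovastatin against 12.31 and 12.33 in DMSO, with 10.16 and 10.23 in OVCAR5 under lovastatin against 12.33 and 12.29 in DMSO. The lines were level in DMSO, both fell without overlap, and SKOV3 fell further, a difference of -2.21 ± 0.24 (SE, adjusted p = 0.000484). CCN2, its relative, differed by -1.83. ANKRD1, a nuclear cofactor, was undetected in SKOV3 under lovastatin, at least 18.6-fold below its DMSO level (adjusted p = 4.14e-07), and fell by 2.50 log2 in OVCAR5. IGFBP3, which binds insulin-like growth factors, fell by 4.0 log2 in SKOV3 and was undetected in OVCAR5. The TEAD letters GGAATG were in 10 of 16 promoters of this list (62.5%) and in 14.6% of tested genes. THBS1, thrombospondin 1, read 6.76 and 6.16 in SKOV3 with lovastatin, against 11.71 and 11.58 in SKOV3 with DMSO, and 8.80 and 8.90 in OVCAR5 with lovastatin, against 10.55 and 10.61 in OVCAR5 with DMSO. SKOV3 lay above OVCAR5 in DMSO and below it under lovastatin, and the difference was -3.45 ± 0.26 (SE, adjusted p = 0.000131). Of 19 SRF targets and actin cytoskeleton genes, 4 were called (21.1%, against 27.3% of all genes), 3 below 0 and ACTN1 above 0 (0.83). TAGLN, an actin-binding protein under SRF control, had the lowest difference of that list, -2.08.

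**Figure D3:**
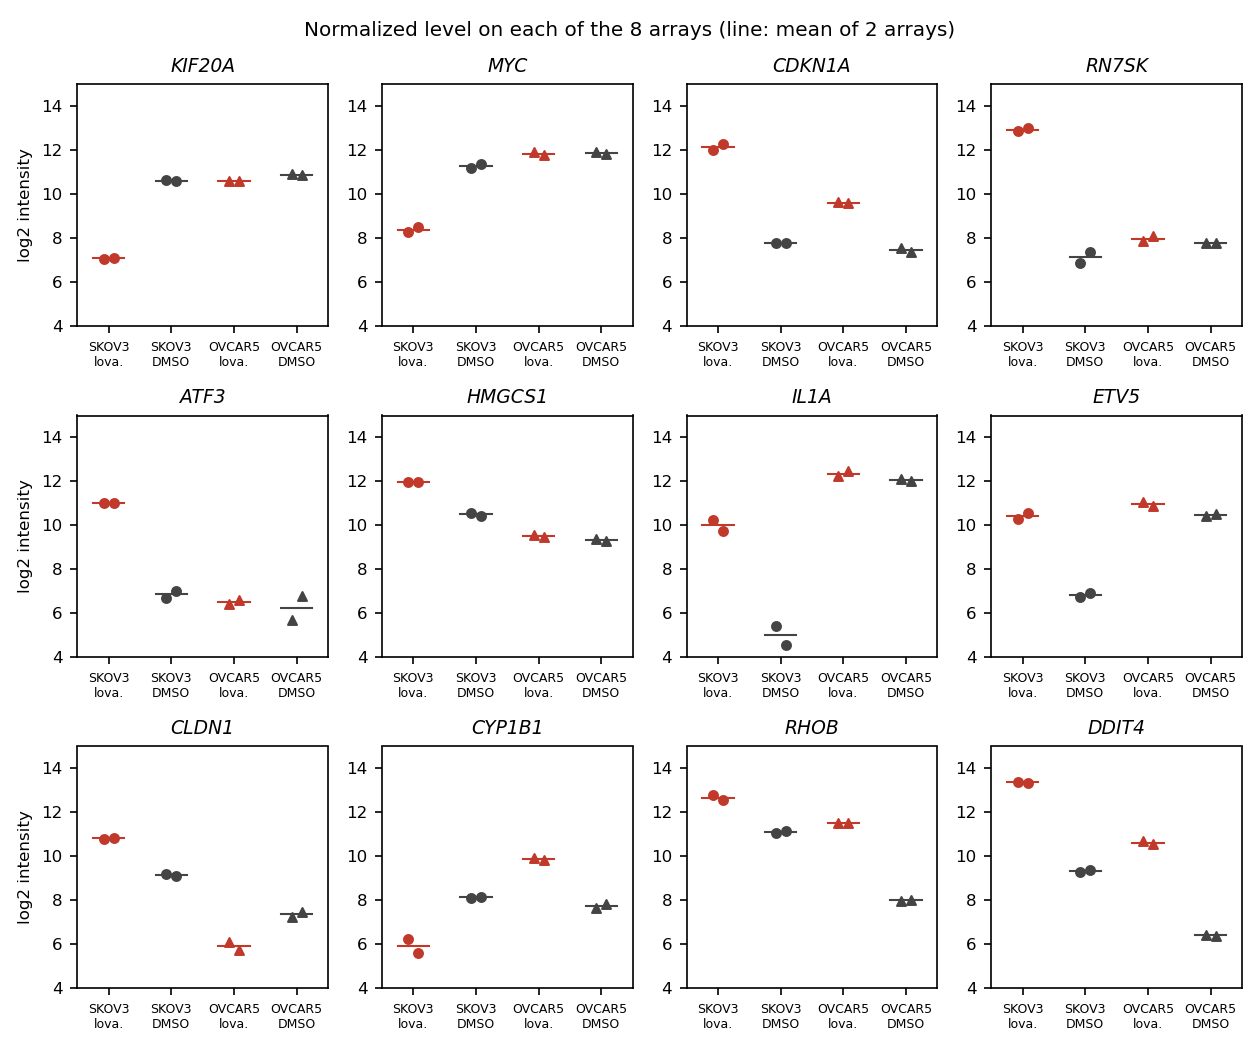
Normalised log2 intensity (vertical axis) of 12 genes on each of the 8 arrays. Circles are SKOV3 and triangles OVCAR5, red is lovastatin and grey DMSO, and lines are means of 2 arrays. KIF20A and MYC were low in lovastatin-treated SKOV3 alone, RN7SK and ATF3 were high there alone, CLDN1 and CYP1B1 moved in opposite directions, and DDIT4 rose alike.

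The 2 highest differences among genes measured in both lines belonged to small structural RNAs. RN7SK, the 7SK RNA that holds the elongation factor P-TEFb inactive, read 12.90 and 13.0 in lovastatin-treated SKOV3 and 6.90 and 7.37 in its DMSO control, and 7.87 and 8.12 in lovastatin-treated OVCAR5 and 7.80 and 7.78 in its DMSO control. SKOV3 with lovastatin lay far above every other array, while the OVCAR5 groups lay close together. The difference was 5.61 ± 0.24 (SE, adjusted p = 2.01e-05), and a second probe gave 7.03. RNA5S9, a 5S ribosomal RNA, read 12.99 and 12.94 in SKOV3 under lovastatin against 7.70 and 7.84 in DMSO, with 8.32 and 8.71 in OVCAR5 under lovastatin against 8.72 and 9.0 in DMSO. The same 2 arrays were high, and the difference was 5.54 ± 0.23 (SE, adjusted p = 1.82e-05). The U1 spliceosomal RNAs RNVU1-7, RNVU1-18 and RNU1-3 rose in SKOV3 and fell in OVCAR5, and RNU1-1 rose in SKOV3 with an OVCAR5 change of -0.46 that did not pass the test. RNVU1-7 changed by 3.43 and -0.86, and RNU1-3 by 3.33 and -0.79.

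These RNAs were gathered into a list after their values were seen, so their counts are a description. Of 25 structural RNAs other than snoRNAs, 21 were called (84%, against 27.3% of all genes), all above 0. In SKOV3 20 rose, in OVCAR5 5 fell, and the median difference was 1.73. RN7SL1, RNY3, VTRNA1-1 and TERC, the RNAs of the signal recognition particle, a Ro particle, the vault and telomerase, were not called. RN7SL1 read 13.80 to 14.10 on all 8 arrays. Copies of U1, 5S and U3 RNA are near identical, so a probe cannot be tied to 1 copy. These RNAs normally carry no poly(A) tail, and the cRNA was made, per the labels, with a MessageAmp kit, which primes from such tails. How these RNAs entered the labelled cRNA was not tested, and their values need not follow their amounts. Of 95 snoRNAs, 39 were called (41.1%, against 27.3% of all genes), 31 above 0 and 8 below, with a median of 0.29. In SKOV3 36 fell, against 50 in OVCAR5. The U3 RNAs SNORD3A, SNORD3C and SNORD3D, which process ribosomal RNA, differed by 4.20, 4.53 and 4.16.

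**Figure D4:**
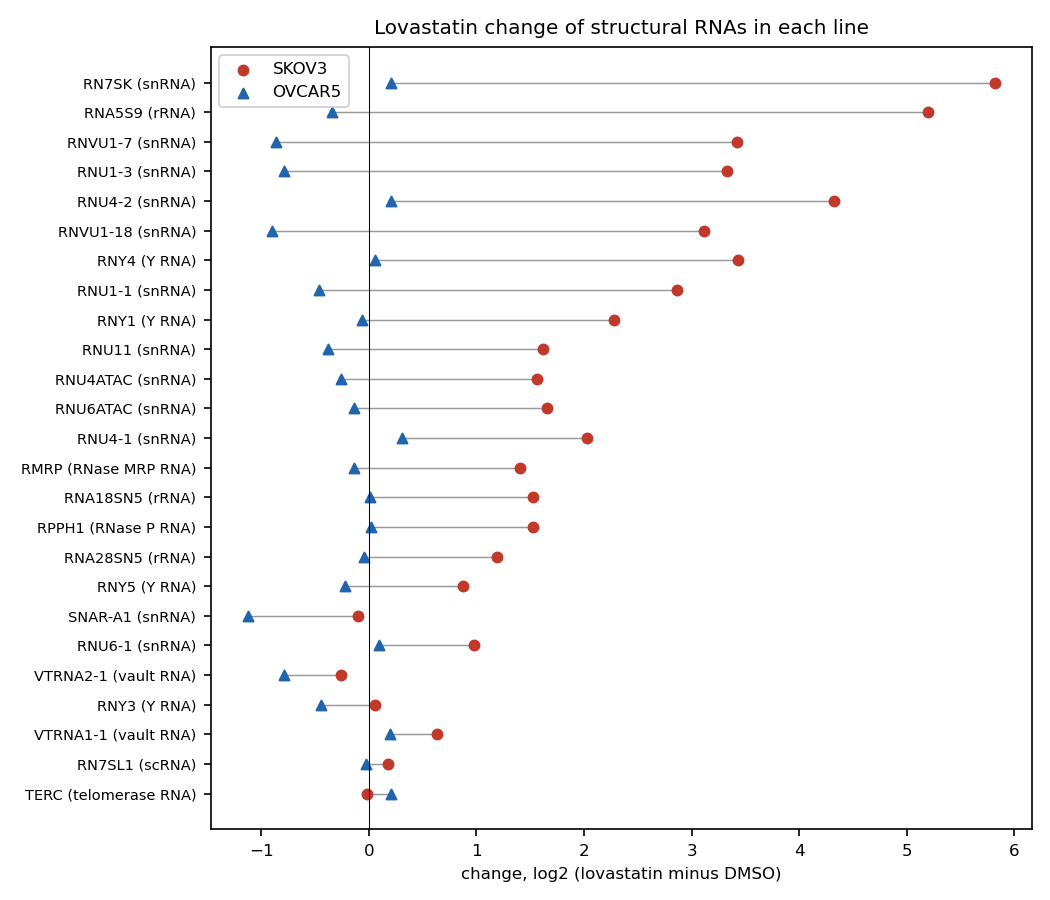
Lovastatin change (horizontal axis, log2, means of 2 arrays per group) of 25 structural RNAs in SKOV3 (red circles) and OVCAR5 (blue triangles). SKOV3 lay above 0 for most, up to 5.82 for RN7SK, while OVCAR5 lay between -1.12 and 0.30.

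MMP10, stromelysin 2, a matrix protease, had the highest difference of all 11218 genes. It read 12.75 and 12.49 in SKOV3 with lovastatin, against 5.95 and 6.15 in SKOV3 with DMSO, and 5.02 and 4.99 in OVCAR5 with lovastatin, against 4.66 and 4.66 in OVCAR5 with DMSO. Only the lovastatin arrays of SKOV3 were high, no OVCAR5 array detected the gene, and the difference was 6.22 ± 0.19 (SE, adjusted p = 5.75e-06). Of 16 matrix proteases and inhibitors, 8 were called (50%, against 27.3% of all genes). Of these, 6 lay above 0, and MMP3 and ADAMTS1 below, with a list median of 0.32. MMP3, stromelysin 1, was undetected in SKOV3 and read 8.14 and 8.20 in OVCAR5 with lovastatin against 6.25 and 6.0 with DMSO. MMP7, matrilysin, and PLAUR, the urokinase receptor, rose in SKOV3 by 2.03 and 1.73. The AP-1 letters TGANTCA were in 3 of 9 protease promoters, against 7.07% of tested genes.

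Of 29 NF-κB and cytokine genes, 17 were called (58.6%, against 27.3% of all genes), 11 above 0 and 6 below. The list median was 0.22, which became 0.44 without OVCAR5 DMSO replicate 1, 0.34 without SKOV3 lovastatin replicate 2 and 0.13 without SKOV3 DMSO replicate 1. IL1A, an alarmin cytokine, read 10.26 and 9.74 in lovastatin-treated SKOV3 and 5.44 and 4.56 in its DMSO control, and 12.23 and 12.47 in lovastatin-treated OVCAR5 and 12.12 and 12.01 in its DMSO control. OVCAR5 was high on all 4 arrays, and SKOV3 became high only under lovastatin. The difference was 4.72 ± 0.40 (SE, adjusted p = 0.00018), and SKOV3 stood at -2.35 relative to OVCAR5 under lovastatin and at -7.07 in DMSO. IL11 and IL32, both inducible cytokines, differed by 2.97 and 2.38. IL6 went the other way at -2.71 ± 0.30 (SE, adjusted p = 0.000515), falling by 2.20 log2 in SKOV3. SERPINA3, an acute phase protease inhibitor, rose by 3.65 in SKOV3 and was above detection on 1 of 4 OVCAR5 arrays. Among interferon-stimulated genes, IFI27 was at least 21.1-fold higher with lovastatin in SKOV3 (adjusted p = 1.21e-06) and undetected in OVCAR5. IFIT1, which binds viral RNA, fell by 0.99 in SKOV3 and rose by 0.96 in OVCAR5. Of 28 such genes, 8 were called (28.6%, against 27.3% of all genes), and the list median of 0.13 turned to -0.03 without SKOV3 lovastatin replicate 2.

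Transcripts that follow ERK signalling mostly had differences above 0, 13 of the 18 measured. Of these targets and feedback regulators, 12 were called (66.7%, against 27.3% of all genes), with a list median of 0.81. The call was above 0 for 10, and below 0 for DUSP10 and DUSP4. DUSP4 was undetected in SKOV3, so its difference rests on its OVCAR5 rise of 0.75. DUSP4 lost its call, at -0.52 to -0.70, without any 1 array but SKOV3 lovastatin replicate 1, and without background correction (-0.33). A variance model with a trend and robust fitting, or no detection filter, also ended that call, at -0.62 in each. DUSP10 (-0.80), undetected in OVCAR5 with DMSO, lost its call without background correction (-0.27) and with an offset of 50 (-0.36). ETV5, an ETS factor induced by ERK, read 10.31 and 10.58 in SKOV3 under lovastatin against 6.74 and 6.92 in DMSO, with 11.06 and 10.88 in OVCAR5 under lovastatin against 10.42 and 10.52 in DMSO. SKOV3 lay -3.64 log2 relative to OVCAR5 in DMSO, the low SKOV3 DMSO arrays stood apart, and the difference was 3.11 ± 0.20 (SE, adjusted p = 6.74e-05). SPRY2, a feedback inhibitor, and DUSP5, an ERK phosphatase, differed by 1.82 and 1.95. SPRY4 was undetected in SKOV3 with DMSO, at least 2.73-fold higher with lovastatin there (adjusted p = 1.39e-05). Its fitted difference was 2.02, while another of its probes gave 0.22. Of 16 receptor kinases, 7 rose and 4 fell in SKOV3. The difference was called for 7 (43.75%, against 27.3% of all genes), 4 above 0 and 3 below, and the median was 0.37. The 3 called below 0, KIT, AXL and EGFR, fell in SKOV3, with changes of -3.83, -1.94 and -1.12, and KIT was undetected in OVCAR5. In the ERBB2 neighbourhood 7 of 14 genes were called (50%, against 27.3% of all genes), with a median of 0.27, which median scaling reduced to 0.11. GRB7, an adaptor beside ERBB2, was undetected in OVCAR5, so its difference of 2.52 rests on its SKOV3 rise of 2.71. ERBB2 itself, detected in both lines, had a difference of 0.19 that did not pass the test (95% interval -0.20 to 0.58).

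In the TGF-β group 9 of 15 were called (60%, against 27.3% of all genes). FST, follistatin, which binds activin, fell by 1.69 log2 in OVCAR5 and was undetected in SKOV3. SMAD6, an inhibitory SMAD, fell by 1.95 in SKOV3 and was undetected in OVCAR5. Among p53 target genes 13 of 21 were called (61.9%), 7 above 0 and 6 below, with a median of -0.06 that lay between -0.15 and 0.07 when any 1 array was left out. PLK2, a polo-like kinase, fell in both lines and differed by -2.52. SESN2, a stress-induced mTORC1 inhibitor, was at least 4.6-fold higher with lovastatin in SKOV3 (adjusted p = 0.000117). Of 19 BCL2 family genes, 6 were called (31.6%), near the 27.3% of all genes. PMAIP1 (NOXA) differed by 1.65, and HRK was detected only in SKOV3 with lovastatin, at least 6.4-fold above DMSO (adjusted p = 2.55e-05).

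Opposite called changes were found for 158 genes, 69 up in SKOV3 and down in OVCAR5 and 89 the reverse. CLDN1, a tight junction claudin, read 10.80 and 10.85 in SKOV3 with lovastatin, against 9.18 and 9.09 in SKOV3 with DMSO, and 6.11 and 5.73 in OVCAR5 with lovastatin, against 7.26 and 7.47 in OVCAR5 with DMSO. Neither line's groups overlapped, SKOV3 rose by 1.69 and OVCAR5 changed by -1.44, and the difference was 3.13 ± 0.22 (SE, adjusted p = 8.61e-05). TGM2, transglutaminase 2, changed by 1.40 and -1.62, but its other probes differed by -0.40 and 1.18, so its direction depends on the probe. SIK1, a salt-inducible kinase, and SH3RF1, a scaffold of JNK signalling, were also up in SKOV3 and down in OVCAR5, with differences of 2.65 and 2.30. A second SIK1 probe differed by 1.14 and changed by -0.06 in OVCAR5, so the fall there rests on 1 probe.

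In the other direction, CYP1B1, a cytochrome P450 under the aryl hydrocarbon receptor, read 6.24 and 5.59 in lovastatin-treated SKOV3 and 8.10 and 8.16 in its DMSO control, and 9.91 and 9.86 in lovastatin-treated OVCAR5 and 7.65 and 7.84 in its DMSO control. The lines were near each other in DMSO and parted under lovastatin, SKOV3 downwards and OVCAR5 upwards. Its difference of -4.36 ± 0.28 (SE, adjusted p = 6.74e-05) was the lowest among genes measured in both lines. SHISA2, which restrains Wnt and FGF receptors, was undetected in SKOV3 under lovastatin, at least 3.58-fold below DMSO (adjusted p = 2.59e-06), and rose by 1.80 log2 in OVCAR5. RRAD, a small GTPase of calcium channels, changed by -1.67 and 1.65. LHX1, a homeobox factor of the developing kidney, changed by -1.80 and 1.29. SLC43A2, an amino acid carrier, was undetected in SKOV3 under lovastatin and in OVCAR5 in DMSO, at least 1.18-fold lower in SKOV3 (adjusted p = 0.00311) and at least 2.19-fold higher in OVCAR5 (adjusted p = 0.00161).

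**Figure D5:**
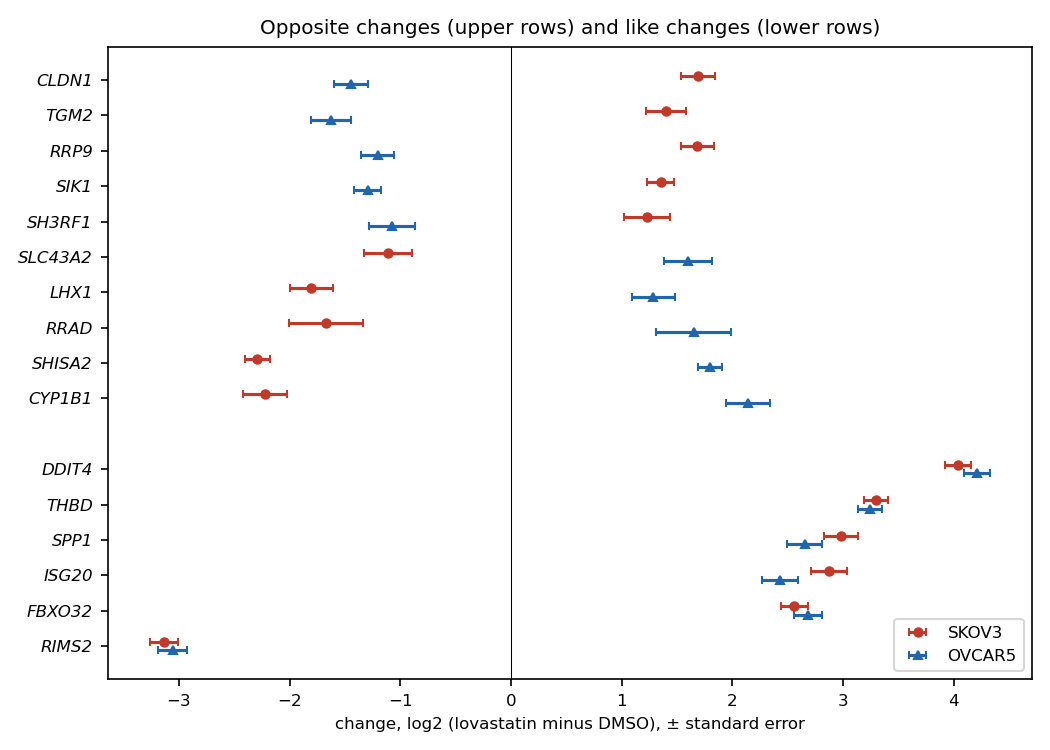
SKOV3 (red circles) and OVCAR5 (blue triangles) changes with standard errors (horizontal axis, log2, lovastatin minus DMSO, 2 arrays per group) for the 10 genes with the largest opposite changes above and 6 genes with like changes below. Opposite genes lie on either side of 0, and like genes lie together, from -3.14 for RIMS2 to 4.21 for DDIT4.

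Genes that moved more in OVCAR5 were fewer. BHLHE40, a circadian and hypoxia-responsive repressor, read 13.03 and 12.85 in SKOV3 under lovastatin against 12.02 and 12.05 in DMSO, with 9.74 and 9.73 in OVCAR5 under lovastatin against 6.34 and 5.73 in DMSO. The OVCAR5 DMSO arrays were far below all others, and the difference was -2.79 ± 0.27 (SE, adjusted p = 0.000281). CALHM3, a calcium channel subunit, was undetected in OVCAR5 DMSO, at least 5.62-fold higher with lovastatin there (adjusted p = 3.69e-06), and its SKOV3 change of 0.15 did not pass the test. ITGB4, the hemidesmosome integrin, was at least 2.95-fold higher with lovastatin in OVCAR5 (adjusted p = 1.39e-05) and 0.63 log2 higher in SKOV3. PFKFB4, a glycolytic regulator, rose by 2.27 in OVCAR5, and its SKOV3 change of 0.37 did not pass the test.

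NRF2 target genes, which detoxify electrophiles, had a median difference below 0. Of 21 measured, 13 rose in OVCAR5 and 9 in SKOV3. The difference was called for 7 (33.3%, against 27.3% of all genes), 6 below 0, and TXNRD1, thioredoxin reductase, above 0. The list median was -0.41. That median was -0.26 without SKOV3 lovastatin replicate 2 and -0.27 without SKOV3 DMSO replicate 1. AKR1C3, an aldo-keto reductase, read 13.02 and 13.05 in SKOV3 with lovastatin, against 11.79 and 11.77 in SKOV3 with DMSO, and 11.36 and 11.37 in OVCAR5 with lovastatin, against 8.39 and 8.42 in OVCAR5 with DMSO. It rose in both lines without overlap and more in OVCAR5, a difference of -1.71 ± 0.15 (SE, adjusted p = 0.000222). AKR1B10, a related enzyme, was detected in OVCAR5 with lovastatin alone, at least 3.68-fold above DMSO (adjusted p = 1.39e-05). AKR1C2 differed by -1.13, but by -0.08 and without a call when no background was subtracted. NQO1, a quinone reductase, changed by -0.65 in SKOV3 and 0.44 in OVCAR5.

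Like responses were set apart by size rather than by the absence of a call. For 988 genes (8.81%) lovastatin was called in the same direction in both lines and the 95% interval of the difference lay within 1 log2 of 0, 607 up and 381 down, out of 1591 called the same way in both. Of the 988, 25 were also called for the difference. DDIT4 read 13.40 and 13.35 in lovastatin-treated SKOV3 and 9.31 and 9.37 in its DMSO control, and 10.68 and 10.55 in lovastatin-treated OVCAR5 and 6.45 and 6.36 in its DMSO control. It rose by 4.04 in SKOV3 and 4.21 in OVCAR5, with a difference of -0.17 (95% interval -0.55 to 0.20). That likeness depends on the processing, since the difference was -0.69 and called under median scaling and 0.66 and called without background correction. THBD, thrombomodulin, had a difference of 0.06 (95% interval -0.29 to 0.41), but of -0.91 without background correction and -0.68 with an offset of 50, both called. It was undetected in SKOV3 with DMSO, at least 5.38-fold higher with lovastatin there (adjusted p = 6.57e-07). RIMS2, a synaptic scaffold, fell by 3.14 in SKOV3 and was at least 5.69-fold lower in OVCAR5 (adjusted p = 1.06e-05), where it was undetected with lovastatin. FBXO32, a ubiquitin ligase subunit of muscle wasting, rose by 2.56 and 2.68. Without background correction the differences of RIMS2 (-0.47) and FBXO32 (-0.55) were called.

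Krüppel-like factors, several of which statins are known to induce in endothelium, rose in part in both lines. Of 9 measured, 7 rose in SKOV3 and 5 in OVCAR5, and none fell. KLF4 alone was called for the difference (11.1%, against 27.3% of all genes). KLF2 rose by 1.80 in SKOV3 and 2.30 in OVCAR5, with a difference of -0.50 (95% interval -1.01 to 0.02) that was called without SKOV3 lovastatin replicate 1 (-0.72). KLF6 rose by 1.12 and 1.37, with a difference of -0.26 (95% interval -0.63 to 0.11). KLF4 had a difference of 1.98 that lost its call without SKOV3 DMSO replicate 2 (1.71) or OVCAR5 lovastatin replicate 1 (1.72), under median scaling (1.77) and with the mean of its probes (1.17). Its second probe gave 0.37. The list median of -0.21 turned to 0.26 without OVCAR5 DMSO replicate 2 and was -0.13 without SKOV3 DMSO replicate 1.

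Because the groups share a common scale, the difference is also the change in the gap between the lines. Among the 2384 called genes measured in both lines, the gap under lovastatin was wider than in DMSO for 1530 and narrower for 854. For 266 the line with the higher level changed, with both gaps called, 133 in each direction. Over all tested genes the gap was called for 68% under lovastatin and 61.9% in DMSO. Among the same 2384 genes, the gap was called under lovastatin and not in DMSO for 774, and in DMSO and not under lovastatin for 439. Over all 8901 genes measured in both lines, the standard deviation of the gap was 1.14 log2 under lovastatin and 1.03 in DMSO. KIF20A widened, to -3.54 under lovastatin against -0.27 in DMSO. ETV5 narrowed, to -0.53 against -3.64, and THBS1 turned, at -2.39 against 1.06.

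A further 1997 genes were measured in 1 line alone, and 674 of them (33.8%) were called, against 2384 of 8901 (26.8%) measured in both. ZBED2, a zinc finger repressor, was detected in SKOV3 with DMSO only and was at least 12.7-fold lower there with lovastatin (adjusted p = 3.56e-07). DIO2, a thyroid hormone deiodinase, and CDH6, a cadherin, fell in SKOV3 by 3.85 and by 3.46 log2 and were undetected in OVCAR5. LCN2, a siderophore-binding protein measured in both lines, rose by 3.40 in SKOV3 and 0.79 in OVCAR5. For 2950 genes several probes were kept, and of the 806 called among them 85 had another probe with a difference of the opposite sign.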

How the data were processed

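The authors deposited, per the file headers, the mean bead intensity of each probe on each array, not normalized, with a detection p-value. They also deposited a log2 table, for which the submitters' processing notes name limma, with scale and centring not stated. Its values lay within 0.01 of neqc applied within each line for 99.997% of entries in SKOV3 and 99.987% in OVCAR5, and it served as an alternative. The scanning software is not given in the sources used here.

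The deposited intensity values of all 8 arrays were background-corrected against detection p-values, quantile-normalized and log2-transformed with neqc (offset 16) in limma 3.58.1 (R 4.3.3). Group means were fitted with lmFit and eBayes, and p-values were adjusted over all 11218 genes. Probes were named from the platform annotation: 30113 had 1 symbol, 8 several and 17202 none. For a gene undetected in 1 group of a line, the change within that line was given as a bound, "at least N-fold". The bound sets the detected group against the lowest detected signal. Fitted differences of genes undetected in a group are also printed, and they are no bounds. The calculation was tested on simulated data. Where replicates came from is not given, so p-values measure only the spread between these arrays, which may be technical.

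Named genes were the highest and lowest differences, the largest opposite and like changes, up to 4 genes of each list, and 15 genes always eligible. Genes named to complete a count, check a line or show a promoter were chosen after their values were seen. The genes, lists and rules were chosen with earlier results of these data known. Arrays were left out in turn, and other scalings, filters, probe rules and variance models were tried. The result of 1 gene list is not reported here.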

Additional observations from a re-analysis of the deposited data

Results flagged for a closer look

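The responses of the lines differed by a test of the difference itself for 3062 genes, by the limma contrast with an adjusted p under 0.05. Among the genes with called changes in opposite directions, 10 stood out by the size of the smaller change. Of the 5 that rose in SKOV3 and fell in OVCAR5, CLDN1 differed by 3.13 log2, TGM2 by 3.03, RRP9 by 2.89, SIK1 by 2.65 and SH3RF1 by 2.30. Of the 5 that fell in SKOV3 and rose in OVCAR5, CYP1B1 differed by -4.36, SHISA2 by -4.09, RRAD by -3.32, LHX1 by -3.09 and SLC43A2 by -2.71. Other probes of TGM2 gave -0.40 and 1.18. No group had the 4 arrays that a search for single distant arrays needs.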

How the results depend on the processing

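With 2 arrays per group the number of arrays limits precision: the median 95% interval of a difference reached 0.49 log2 to either side, and dim probes carry compressed differences. The count of called genes was 2354 under median scaling and 3758 over every kept probe, against the 3062 reported. Median scaling gave 758 genes above 0 and 216 with the larger same-way change in SKOV3. Leaving out each array in turn gave 2086 to 3452 called genes, 956 to 1613 above 0 and 1129 to 1839 below. It gave 1377 to 2048 called in SKOV3 only, 221 to 486 in OVCAR5 only, 74 to 202 in opposite directions, 164 to 611 with the larger same-way change in SKOV3 and 31 to 68 in OVCAR5. DDIT4 turned to 0.66 without background correction, and THBD to -0.91 without it and -0.68 with an offset of 50. The cause was not tested. Replicate numbers are shared between groups, and it is not stated whether they pair the samples. The difference between the 2 arrays of a group, taken by number, correlated between groups at -0.22 to 0.23. Between lovastatin and DMSO of the same line it was 0.23 in SKOV3 and -0.03 in OVCAR5. These values do not settle whether same-numbered arrays are paired. With the replicate number as a block within each line 3151 genes were called, and as a block over both lines 2848. Among the genes named, the block ended the call of CDC25B alone, with an adjusted p of 0.0596 within each line and 0.0579 over both in limma, at -0.53 in each.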

Other observations

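Of the probes that passed the detection filter, 4011 had no gene symbol in the annotation. The difference between the lines was called for 509 of them (12.7%), with p-values adjusted by Benjamini-Hochberg in limma.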
